A study of Homo sapiens with 5 samples.

Results

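The genes described here are 8 transcripts linked to the phosphoinositide 3-kinase (PI3K) pathway, picked out by their symbols, with earlier results of these data known. They comprise 6 genes known to be induced by the FOXO transcription factors (SESN1, SESN3, KLHL24, CCNG2, TSC22D3 and CITED2) and the 2 genes for the regulatory subunits p85-alpha and p85-beta of PI3K (PIK3R1 and PIK3R2). All 8 were among the 12474 genes of the count matrix, 1 row each. They were measured by 3′ single-cell RNA sequencing in MDA-MB-468 cells, an established triple-negative breast cancer line that strongly expresses EGFR and here carried lineage barcodes. Cells were exposed to 250 nM afatinib, a covalent EGFR and ERBB2 inhibitor, for 3, 6 or 9 days (D3, D6 and D9, 1 library each), and untreated cells of day 0 were captured in 2 libraries (D0, replicates 1 and 2). Per the study's methods, treated cells were frozen at collection and thawed before capture, and the D0 libraries came from separate captures and flow cells. The methods do not say whether the untreated cells of D0 were frozen, so an effect of that handling cannot be told apart from that of afatinib. Nothing in the labels names the D0 replicates as separate cultures. The p-values for afatinib against untreated measure a spread within the D0 pair and between the treated days. The part from the D0 pair may be technical only, and the part from the days may include change over time. In the fit by day, p-values rest on the D0 pair alone.

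EGFR and its partner ERBB3 recruit PI3K to the membrane through the p85 subunits, which also hold the catalytic p110 subunit in check until then. The lipid that PI3K makes activates AKT, and AKT phosphorylates FOXO proteins and keeps them out of the nucleus. When the pathway is inhibited, FOXO proteins can enter the nucleus and induce genes that slow growth, restrain mTORC1 or restore receptor signalling. Whether FOXO proteins moved was not measured here.

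The afatinib libraries held 479, 942 and 1139 cells at D3, D6 and D9, and the untreated ones 478 and 1063, 4101 cells in all. Total counts were between 14517579 and 28148379 per library. Median UMIs per cell were 22715, 13862 and 20216 at D3, D6 and D9, against 45658.5 and 25252 in untreated D0 replicates 1 and 2, so shares of cells with a transcript are given after every cell had been thinned to 5000 UMIs. Mitochondrial transcripts took 17.2%, 16.0% and 8.82% of counts at D3, D6 and D9 and 7.25% and 7.80% in the untreated libraries. Cells assigned to G1 made up 24.2%, 24.5% and 27.4% at D3, D6 and D9 and 17.2% and 15.8% of untreated cells. Of 4100 barcode sequences, 1 occurred in more than 1 library. The 6 epithelial markers were present in every library (EPCAM, for example, at 446 to 666 CPM unscaled), and of the other cell types' markers COL1A1 alone, at 2.09 to 7.78 CPM unscaled, was among the genes analysed. In summed counts, fewer cells with a transcript and less RNA per cell cannot be told apart.

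Because several of these genes moved together, the RefSeq promoter windows of the members (250 bases before and 50 after a start site, GRCh38.p14) were read for the letters that forkhead proteins prefer. All 8 genes matched, with 18 windows. Searched on both strands were GTAAACA, its shorter form TAAACA, which lies within it, and AAACAA, the insulin-response type. GTAAACA was found in 1 of the 18 windows, in TSC22D3, and in 3.42% of all 35116 windows of the same length. TAAACA was found in 2 windows, of TSC22D3 and PIK3R1, and in 12.3% of all windows. AAACAA was found in 1 window each of SESN1, SESN3, KLHL24 and CCNG2 and in 17.9% of all windows. No window of CITED2 or PIK3R2 held any of these letters. The windows below are those of the 3 genes with the largest rises and that of PIK3R1, which fell, each 5′ to 3′ on the gene's own strand, with the matched letters in capitals (TGTTTAC and TTGTTT are the same words read on the other strand). A match is a description of the letters and not of binding.
TSC22D3 (chrX:107717013-107717312, minus strand): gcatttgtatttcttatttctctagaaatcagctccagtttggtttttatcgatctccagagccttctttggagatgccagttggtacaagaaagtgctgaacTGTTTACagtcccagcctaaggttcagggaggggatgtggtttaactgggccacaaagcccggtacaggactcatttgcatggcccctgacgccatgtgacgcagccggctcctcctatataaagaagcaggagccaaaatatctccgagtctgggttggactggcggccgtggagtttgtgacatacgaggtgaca
SESN3 (chr11:95232426-95232725, minus strand): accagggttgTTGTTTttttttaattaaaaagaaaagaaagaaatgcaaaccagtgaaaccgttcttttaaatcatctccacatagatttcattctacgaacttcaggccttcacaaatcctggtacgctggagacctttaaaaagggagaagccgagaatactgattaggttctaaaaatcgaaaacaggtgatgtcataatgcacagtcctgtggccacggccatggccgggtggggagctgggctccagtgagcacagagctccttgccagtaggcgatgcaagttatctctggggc
KLHL24 (chr3:183635373-183635672, plus strand): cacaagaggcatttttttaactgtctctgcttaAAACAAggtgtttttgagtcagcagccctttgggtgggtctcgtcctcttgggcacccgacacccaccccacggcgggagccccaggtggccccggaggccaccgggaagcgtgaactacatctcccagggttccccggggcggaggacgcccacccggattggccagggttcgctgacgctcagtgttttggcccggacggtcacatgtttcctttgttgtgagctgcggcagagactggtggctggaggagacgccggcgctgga
PIK3R1 (chr5:68290414-68290713, plus strand): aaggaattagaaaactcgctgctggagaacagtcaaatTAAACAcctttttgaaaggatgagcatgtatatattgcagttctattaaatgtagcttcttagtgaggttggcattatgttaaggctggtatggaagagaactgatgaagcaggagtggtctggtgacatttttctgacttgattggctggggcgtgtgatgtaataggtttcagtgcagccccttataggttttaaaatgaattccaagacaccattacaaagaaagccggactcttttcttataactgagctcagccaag
The TSC22D3 match began 147 bases before the start site and the PIK3R1 match 212 bases before it. The TSC22D3 and PIK3R1 windows are each 1 of 4 of their gene, and 3′ counts do not show which start site was used.

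The first comparison asked which of the 8 genes differed between afatinib and untreated cells. It used counts summed per library and edgeR's quasi-likelihood test over 12145 genes, with the 3 treated days as replicates of treatment. Levels are in CPM, counts scaled to library size with TMM factors. Of the 8 genes, 6 rose (SESN1, SESN3, KLHL24, CCNG2, TSC22D3 and PIK3R2), against 13.1% of all genes that rose, and 2 fell (CITED2 and PIK3R1), against 10.1% of all genes that fell. Their median log2 fold change was 0.98, and that of all genes tested 0.05. The treated and untreated libraries did not overlap for any of the 8, which held for 57.6% of all genes tested. Calls depended on both D0 libraries being present, and the spread behind them also held differences between the treated days. With untreated D0 replicate 1 or replicate 2 left out, SESN3 (adjusted p = 0.0260 and 0.0313) and TSC22D3 (0.0260 and 0.0272) stayed under the threshold, and the other 6 genes had adjusted p-values from 0.0522 (KLHL24) to 0.202 (SESN1) with their directions kept.

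**Figure D1:**
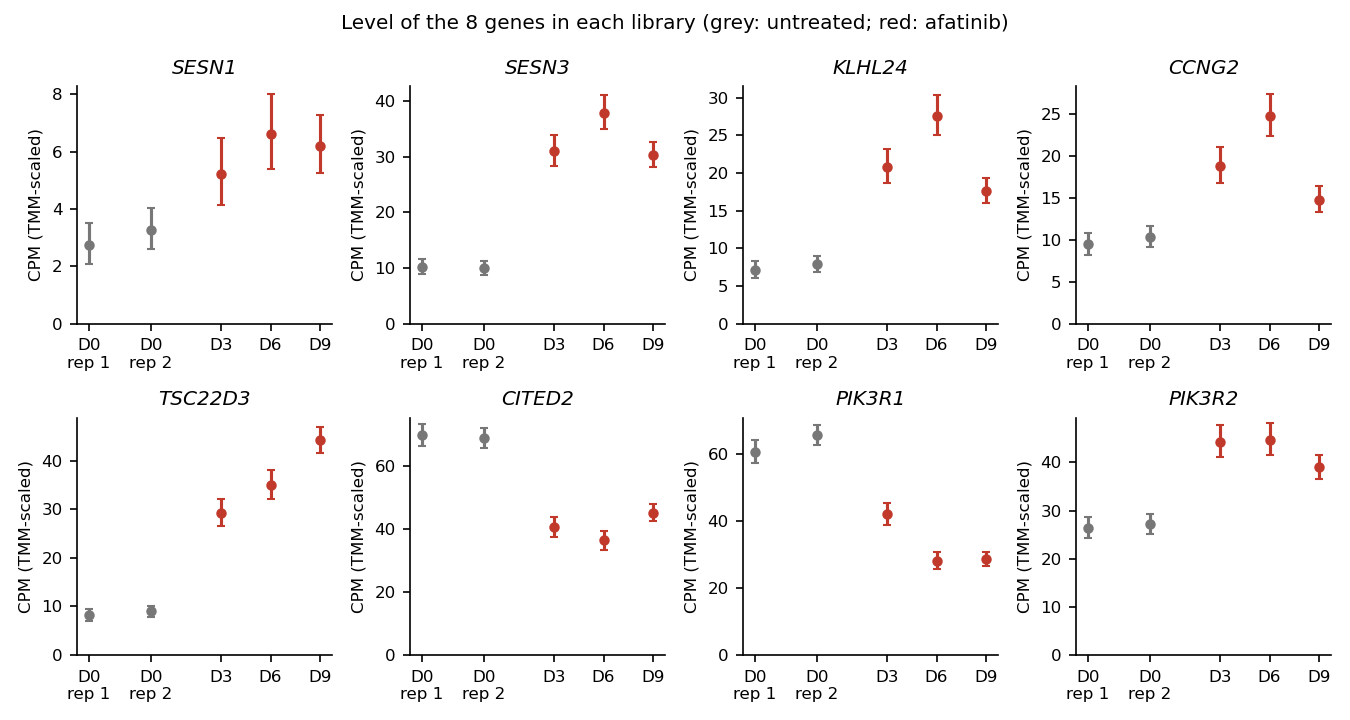
Level of each gene as CPM (TMM-scaled, vertical axes from 0) in each library, in order of day along the horizontal axis, with untreated libraries in grey and afatinib libraries in red; bars are exact Poisson 95% intervals of the summed UMIs and cover counting error only. In SESN1, SESN3, KLHL24, CCNG2, TSC22D3 and PIK3R2 the 3 red points lie above both grey ones, and in CITED2 and PIK3R1 below them.

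The sestrins restrain mTORC1 when growth signals or amino acids are low, and SESN1 and SESN3 both rose. SESN3 (chr11:95165513-95232541, minus strand) had 31.0, 37.9 and 30.3 CPM at D3, D6 and D9, against 10.1 and 9.91 CPM in untreated D0 replicates 1 and 2. D6 was the highest, its counting interval (35.0 to 41.1 CPM) lying above those of D3 and D9, and the untreated pair differed little. The means were 33.1 ± 4.22 CPM (SD, n = 3) and 10.0 ± 0.157 CPM (SD, n = 2), a log2 fold change of 1.72 ± 0.16 (SE, adjusted p = 0.00185), rank 175 among all rises. SESN3 UMIs were found in 15.7%, 17.0% and 14.5% of thinned cells at D3, D6 and D9, against 3.77% and 5.36% of untreated cells. These intervals did not overlap, the lowest treated bound being 12.5% and the highest untreated one 6.89%. LNCRNA-IUR lies over SESN3 on the opposite strand and rose as well, by a log2 fold change of 2.62 ± 0.33 (adjusted p = 0.00337). It had 6.38, 4.21 and 4.08 CPM at D3, D6 and D9, against 0.694 and 0.863 CPM in untreated D0 replicates 1 and 2. The use of strand in counting is not given in the sources used here, so reads of the pair may not be told apart.

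SESN1 (chr6:108984309-109094846, minus strand) was sparse, with 81, 105 and 152 UMIs in all at D3, D6 and D9, against 59 and 87 in untreated D0 replicates 1 and 2. Its levels were 5.22, 6.60 and 6.20 CPM at D3, D6 and D9, against 2.73 and 3.27 CPM in untreated D0 replicates 1 and 2. It rose by a log2 fold change of 1.00 ± 0.22 (adjusted p = 0.0180). The share of thinned cells with a UMI was 2.51%, 4.46% and 3.60% at D3, D6 and D9, against 2.09% and 1.88% in untreated D0 replicates 1 and 2. At D3 the interval, 1.30% to 4.34%, covered both untreated values, so a difference in share was not detectable at that depth. The intervals of D6 (3.23% to 5.98%) and D9 (2.60% to 4.85%) overlapped that of untreated D0 replicate 1 (1.01% to 3.81%). That of D9 also overlapped untreated D0 replicate 2 (1.15% to 2.89%). The call of SESN1 was lost with counts thinned per cell (log2 fold change 0.73, adjusted p = 0.220) and without afatinib D6 (0.92, adjusted p = 0.0554).

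KLHL24 and CCNG2, like SESN1, SESN3 and PIK3R2, had their highest level at D6. For SESN1 and PIK3R2, however, D6 did not stand out from another treated day within counting error. The counting intervals of SESN1 were 5.40 to 7.99 CPM at D6 and 5.26 to 7.27 CPM at D9. Those of PIK3R2 were 41.5 to 48.1 CPM at D6 and 41.1 to 47.8 CPM at D3. KLHL24 (chr3:183635610-183684519, plus strand), a substrate adaptor of a CUL3 ubiquitin ligase, had 20.8, 27.6 and 17.6 CPM at D3, D6 and D9, against 7.08 and 7.88 CPM in untreated D0 replicates 1 and 2. It rose by a log2 fold change of 1.55 ± 0.22 (adjusted p = 0.00456). CCNG2 (chr4:77157207-77433388, plus strand), an unconventional cyclin linked to cell cycle arrest, had 18.8, 24.8 and 14.7 CPM at D3, D6 and D9, against 9.44 and 10.4 CPM in untreated D0 replicates 1 and 2. It rose by 0.97 ± 0.23 (adjusted p = 0.0226). Both genes had their lowest treated level at D9, still above the untreated libraries. The shares of thinned cells moved alike, KLHL24 being found in 11.3%, 14.2% and 8.60% of cells at D3, D6 and D9, against 2.72% and 3.67% of untreated cells. CCNG2 was found in 7.93%, 14.2% and 6.15% of cells at D3, D6 and D9, against 4.18% and 4.14% of untreated cells, and only at D6 did its interval (12.1% to 16.6%) not overlap the untreated ones. The call of CCNG2 was lost with counts thinned per cell, where its log2 fold change was 1.06 (adjusted p = 0.102).

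TSC22D3 (chrX:107713221-107777342, minus strand) encodes GILZ, a leucine zipper protein induced by glucocorticoids as well as by FOXO3. Its levels were 29.3, 35.1 and 44.3 CPM at D3, D6 and D9, against 8.28 and 8.97 CPM in untreated D0 replicates 1 and 2. Unlike the other genes that rose, it had its highest value at D9. It had the largest rise of the 8, a log2 fold change of 2.07 ± 0.21 (adjusted p = 0.00215), rank 103 among all rises. UMIs were found in 13.6%, 13.4% and 17.3% of thinned cells at D3, D6 and D9, against 2.51% and 3.95% of untreated cells. In cells with a UMI, the mean number was 1.19, 1.23 and 1.24 at D3, D6 and D9 and 1.08 and 1.10 in untreated D0 replicates 1 and 2. At so few UMIs per cell that number lies near 1 whatever the level.

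CITED2 went the other way. It encodes a partner of CBP and p300 that competes with HIF-1-alpha, and lies at chr6:139371807-139374648 on the minus strand. It had 40.7, 36.5 and 45.2 CPM at D3, D6 and D9, against 70.0 and 69.0 CPM in untreated D0 replicates 1 and 2. It fell by 0.77 ± 0.14 on the log2 scale (adjusted p = 0.0109), the means being 40.8 ± 4.36 CPM (SD, n = 3) and 69.5 ± 0.676 CPM (SD, n = 2). UMIs were found in 18.0%, 15.5% and 18.8% of thinned cells at D3, D6 and D9, against 26.2% and 23.5% of untreated cells. The D3 interval reached 21.7% and the D9 interval 21.2%. The lower bound of untreated D0 replicate 2 was 21.0%, so the intervals of D3 and D9 each overlapped it.

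The p85 genes moved in opposite directions. PIK3R1 (chr5:68215740-68301821, plus strand) had 41.9, 28.1 and 28.5 CPM at D3, D6 and D9, against 60.6 and 65.4 CPM in untreated D0 replicates 1 and 2. It fell by 0.94 ± 0.20 on the log2 scale (adjusted p = 0.0154), and D3 stood between the later days and the untreated libraries. PIK3R2 (chr19:18153163-18170532, plus strand) had 44.3, 44.7 and 39.0 CPM at D3, D6 and D9, against 26.4 and 27.1 CPM in untreated D0 replicates 1 and 2. It rose by 0.67 ± 0.14 (adjusted p = 0.0143). The paper names PIK3R2 among the genes up-regulated in its dominant clones. That comparison was with its neutral clones and not with untreated cells. Clones were not separated here, so the paper's result is not the same measure as the rise given above. UMIs of PIK3R1 were found in 17.1%, 14.3% and 14.4% of thinned cells at D3, D6 and D9, against 26.2% and 24.6% of untreated cells. UMIs of PIK3R2 were found in 20.5%, 22.7% and 18.1% of thinned cells at D3, D6 and D9, against 10.7% and 10.9% of untreated cells. A read-through gene, ENSG00000268173, covers PIK3R2 on the same strand, so reads of their common exons are uncertain. The call of PIK3R1 was lost without afatinib D6 (log2 fold change -0.86, adjusted p = 0.0516).

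The balance of the subunits was read as the share of PIK3R2 in the summed UMIs of both genes. Capture differs between genes, so only the change of that share is meaningful. PIK3R2 made up 51.4%, 61.5% and 57.8% of the UMIs at D3, D6 and D9, against 30.4% and 29.3% in untreated D0 replicates 1 and 2. The exact intervals ran from 48.7% to 64.3% over the treated libraries and from 27.5% to 32.5% over the untreated ones.

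**Figure D2:**
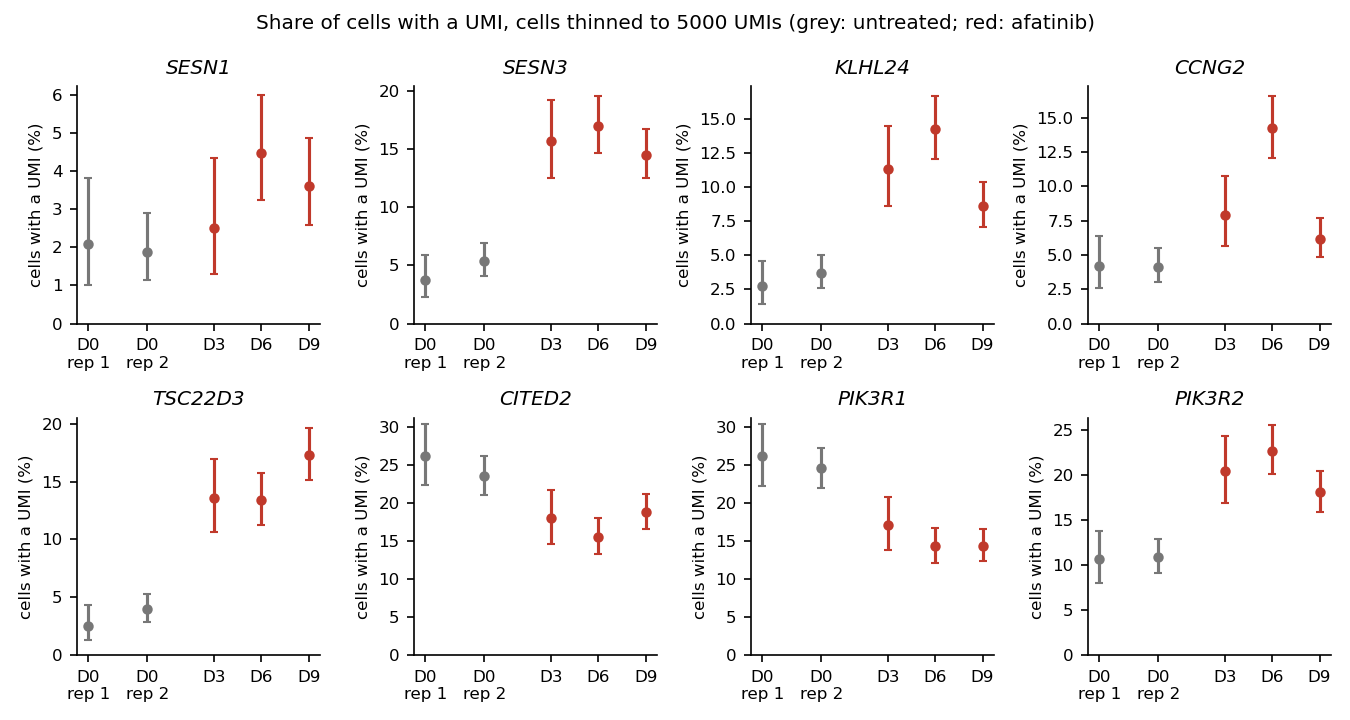
Percentage of cells with at least 1 UMI of each gene after thinning every cell to 5000 UMIs (vertical axes from 0), by library in order of day, with untreated libraries in grey and afatinib libraries in red; bars are exact binomial 95% intervals. SESN3 lies at 14.5% to 17.0% under afatinib and at 3.77% and 5.36% in untreated cells. By contrast, the SESN1 interval of each treated library overlaps that of untreated D0 replicate 1.

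Before thinning, deeper cells show more genes, and the order of libraries differed. UMIs of SESN3 were found in 49.7%, 37.9% and 39.2% of unthinned cells at D3, D6 and D9, against 26.8% and 18.1% of untreated cells, and UMIs of TSC22D3 in 38.8%, 31.3% and 48.1%, against 23.8% and 17.3%. For KLHL24 the unthinned shares were 38.6%, 32.1% and 27.0%, against 24.9% and 14.7% of untreated cells, so these 3 genes kept treated and untreated libraries apart. For CCNG2 they were 34.9%, 31.3% and 24.6%, against 31.6% and 18.7% of untreated cells, and for SESN1 14.0%, 10.1% and 11.9%, against 11.5% and 7.71%, so that the groups overlapped. CITED2 and PIK3R1 stayed below the untreated cells, CITED2 with 52.0%, 35.5% and 49.7%, against 78.7% and 59.0%, and PIK3R1 with 55.3%, 32.6% and 40.7%, against 75.1% and 62.9%. For PIK3R2 the unthinned shares were 58.9%, 44.7% and 47.2% at D3, D6 and D9, against 56.9% and 44.1% of untreated cells, and the groups overlapped.

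An exact permutation test of 1 share in 3 against 2 libraries cannot go below p = 0.1, so shares were tested with limma over all genes, on log2(percent + 1) per library of thinned cells. The adjusted p was 0.00578 for TSC22D3, 0.00658 for SESN3, 0.0117 for KLHL24, 0.0233 for PIK3R2 and 0.0350 for PIK3R1, and missed the threshold for CCNG2 (0.0819), CITED2 (0.0842) and SESN1 (0.145). On that scale the median difference of all genes was 0.12. All cells are of 1 line, so a cell type that lacks these genes, from which free RNA could be gauged, was not at hand. Of the 5 FOXO-linked genes that rose, the mean number with a UMI per thinned cell was 0.509, 0.633 and 0.501 at D3, D6 and D9, against 0.153 and 0.190 in untreated D0 replicates 1 and 2. Cells with none of the 5 made up 59.3%, 50.1% and 59.4% at D3, D6 and D9, against 85.2% and 82.8% of untreated cells. Cells with exactly 2 of the 5 made up 8.35%, 11.2% and 7.02% at D3, D6 and D9, against 0.418% and 1.60% of untreated cells, and cells with 3 or more 0.835%, 1.06% and 1.14%, against 0.0941% in untreated D0 replicate 2 and 0 of 478 cells in replicate 1, which allows a share of up to 0.628%. How often genes are seen together is limited by depth here. Within libraries, Pearson's r over cells for the 28 pairs of the 8 genes ran from -0.0848 to 0.148 with a median of 0.00325, which in counts this sparse is no finding.

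The second comparison set each day against D0 and the days against each other, with day fitted as a factor. A call needed an adjusted p under 0.05 and a log2 fold change of 1 or more in size. The D0 pair supplies the only residual degree of freedom (1), and each single treated library is assumed to vary like that pair. At D3, 3 of the 8 genes were called (SESN3, KLHL24 and TSC22D3 rose), against 10.4% of all genes. At D6, 6 were called (those 3, SESN1 and CCNG2 rose, and PIK3R1 fell), against 12.5% of all genes. At D9, 5 were called (SESN1, SESN3, KLHL24 and TSC22D3 rose, and PIK3R1 fell), against 12.3% of all genes. CITED2 and PIK3R2 stayed under the minimum fold on every day. CITED2 had log2 fold changes of -0.77, -0.93 and -0.62 at D3, D6 and D9, and PIK3R2 of 0.73, 0.74 and 0.54.

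Between treated days edgeR called 0 of the 8 genes, against 1.24% of all genes for D6 against D3, 5.18% for D9 against D3 and 4.22% for D9 against D6. At an unadjusted p under 0.05 with no minimum fold, 4, 3 and 4 of them passed in those comparisons, in that order. The share of all genes passing that looser rule was not taken, so these counts are no finding about the 8 genes. No other tool was run on the days. These pairs set 1 library against 1 library, and their p-values hold no spread between treated samples, so the differences are given as values alone. PIK3R1 had a log2 fold change of -0.58 at D6 against D3. CCNG2 and KLHL24 had -0.75 and -0.65 at D9 against D6, and TSC22D3 had 0.59 at D9 against D3.

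**Figure D3:**
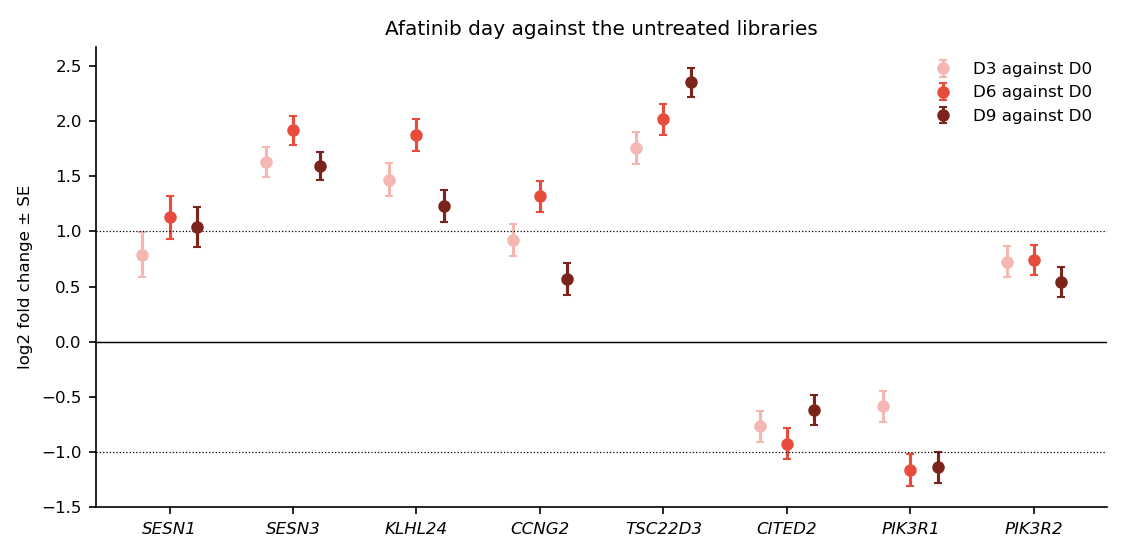
Log2 fold change of each gene at D3, D6 and D9 against the 2 untreated libraries, with bars for the standard error of the fit, which rests on the D0 pair; dotted lines mark a log2 fold change of 1 in size and the solid line marks 0. TSC22D3 lies at 1.76, 2.02 and 2.35 in order of day, and CCNG2 at 0.92, 1.32 and 0.57.

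The deposited counts had been adjusted for batch, and the adjustment can be seen in these genes. PIK3R2 had 80, 88 and 116 cells with 3 UMIs at D3, D6 and D9, against 78 and 42 in untreated D0 replicates 1 and 2. Yet 0 cells had exactly 2 UMIs at D3, D6, D9 and in untreated D0 replicate 1, while 100 cells did in untreated D0 replicate 2. The same held for TSC22D3 and SESN1, with 30 and 5 cells at 2 UMIs in untreated D0 replicate 2 and 0 in each other library. KLHL24, CCNG2 and CITED2 showed the reverse, with 0 cells at 2 UMIs in untreated D0 replicate 2. The treated libraries and untreated D0 replicate 1 thus share a pattern in these genes, and ratios to that library alone were read as well. Against untreated D0 replicate 1 alone, the log2 ratios at D3, D6 and D9 were 1.82, 2.08 and 2.41 for TSC22D3, 1.55, 1.96 and 1.31 for KLHL24 and 0.99, 1.39 and 0.64 for CCNG2. They were 0.93, 1.27 and 1.18 for SESN1, 1.61, 1.90 and 1.58 for SESN3 and 0.75, 0.76 and 0.56 for PIK3R2. For CITED2 they were -0.78, -0.94 and -0.63, and for PIK3R1 -0.53, -1.11 and -1.08. The untreated replicates differed from each other by at most 0.25 in size on that scale (-0.25, SESN1), and no direction depended on the choice between them. Per the paper, the adjustment was made because the D0 cells came from separate captures and flow cells. It may have drawn the D0 libraries together, so their closeness and the kept directions are no independent check. Raw counts were not used here, so how far the adjustment narrowed the spread between the D0 libraries was not tested.

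Cell cycle phase was read next, since the treated libraries held more G1 cells. CCNG2 was highest in G2M cells in all 5 libraries. There its level (CPM, here not TMM-scaled) was 31.5, 31.1 and 24.6 at D3, D6 and D9, against 11.9 and 12.8 CPM in untreated D0 replicates 1 and 2. In G1 cells it had 12.6, 20.7 and 9.73 CPM at D3, D6 and D9, against 4.14 and 4.43 CPM in untreated D0 replicates 1 and 2. Treated levels thus lay above untreated ones within either phase, and in G1 cells alone the log2 fold change was 1.59 (adjusted p = 0.0210). CITED2 was highest in G1 cells in all 5 libraries. Its level there was 68.2, 53.1 and 73.4 CPM under afatinib at D3, D6 and D9, against 94.1 and 84.5 CPM in untreated D0 replicates 1 and 2. In G2M cells CITED2 had 34.7, 30.8 and 37.4 CPM at D3, D6 and D9, against 50.1 and 50.3 CPM in untreated D0 replicates 1 and 2. In G1 cells alone CITED2 had a log2 fold change of -0.59 and missed the threshold (adjusted p = 0.0597).

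PIK3R1 at D3 differed between phases. In G1 cells of D3 it had 64.5 CPM (95% interval 55.6 to 74.3, 116 cells), against 65.97 and 64.96 CPM in G1 cells of untreated D0 replicates 1 and 2. In G2M cells of D3 it had 38.6 CPM (33.8 to 43.9), against 62.8 and 65.6 CPM in G2M cells of untreated D0 replicates 1 and 2. In S cells of D3 it had 41.2 CPM (36.1 to 46.9), against 44.7 (40.2 to 49.5) and 55.6 CPM in S cells of untreated D0 replicates 1 and 2, so that the interval overlapped that of replicate 1. By D6 and D9 the G1 cells too were low, at 26.8 and 37.9 CPM. Over G1 cells alone the log2 fold change was -0.76 and missed the threshold (adjusted p = 0.0860). SESN3 and TSC22D3 lay above both untreated libraries in all 3 phases of every treated library. In G1 cells alone they had log2 fold changes of 1.85 and 1.79.

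**Figure D4:**
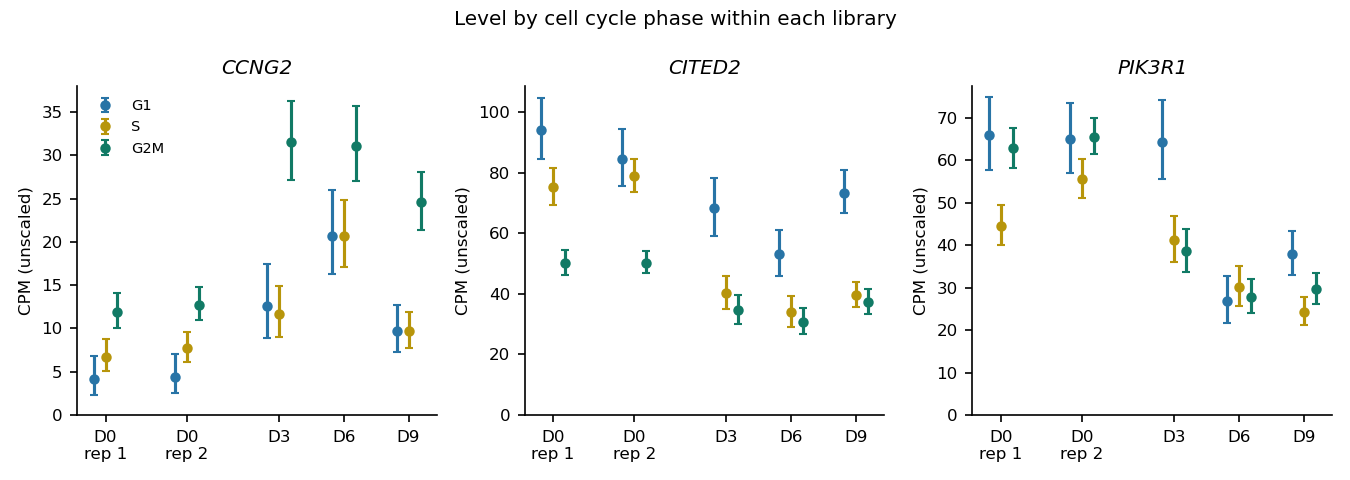
Level in CPM (not TMM-scaled, vertical axes from 0) of CCNG2, CITED2 and PIK3R1 in cells assigned to G1 (blue), S (yellow) and G2M (green) within each library, with exact Poisson 95% intervals that cover counting error only. CCNG2 is highest in G2M and CITED2 in G1 in each library, and PIK3R1 in G1 cells of D3 (64.5 CPM) is at the untreated level.

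The mitochondrial share was higher at D3 and D6 than in the other libraries, so each gene was also read in cells under 10% mitochondrial counts, of which there were 85, 188 and 857 at D3, D6 and D9, against 379 and 860 in untreated D0 replicates 1 and 2. PIK3R1 in such cells had 56.9 CPM at D3 (85 cells), 28.4 at D6 and 29.1 at D9, against 56.9 and 61.4 CPM in untreated D0 replicates 1 and 2. In the other cells of D3 it had 39.9 CPM. Its log2 fold change in cells under 10% was -0.80 and missed the threshold (adjusted p = 0.0657). PIK3R2 in cells under 10% had 35.6, 31.2 and 38.9 CPM at D3, D6 and D9, against 24.5 and 25.2 CPM in untreated D0 replicates 1 and 2, a log2 fold change of 0.39 (adjusted p = 0.0610). In the other cells PIK3R2 had 52.2, 51.8 and 48.0 CPM at D3, D6 and D9, against 27.8 and 29.4 CPM in untreated D0 replicates 1 and 2.

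The share of PIK3R2 in the UMIs of both p85 genes was 38.5%, 52.4% and 57.2% in cells under 10% at D3, D6 and D9, against 30.1% and 29.1% in untreated D0 replicates 1 and 2. It lay above the untreated libraries in each treated library, and least so at D3. SESN3 in cells under 10% had 23.0, 32.05 and 30.7 CPM at D3, D6 and D9, against 9.46 and 8.87 CPM in untreated D0 replicates 1 and 2. Among thinned cells under 10%, however, SESN3 was found in 3.53% at D3 (3 of 85 cells), 17.0% at D6 and 14.0% at D9, against 4.75% and 5.00% in untreated D0 replicates 1 and 2. TSC22D3 in cells under 10% had 37.2, 36.1 and 45.7 CPM at D3, D6 and D9, against 8.29 and 8.47 CPM in untreated D0 replicates 1 and 2, as large a difference as in all cells (log2 fold change 2.13, adjusted p = 0.000535). SESN1 in such cells had a log2 fold change of 0.70 and missed the threshold (adjusted p = 0.151).

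**Figure D5:**
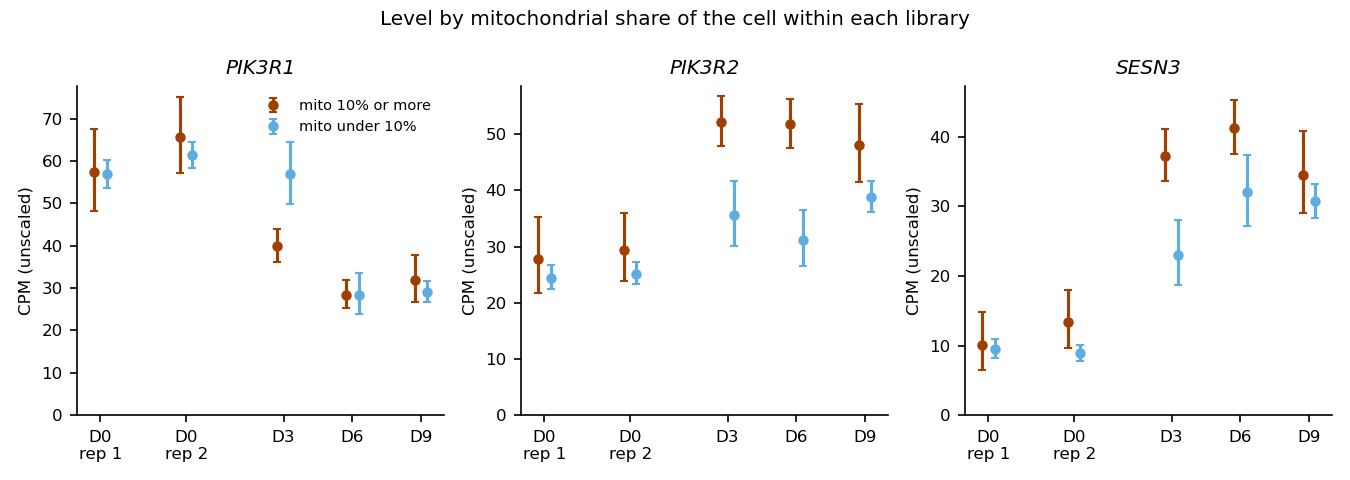
Level in CPM (not TMM-scaled, vertical axes from 0) of PIK3R1, PIK3R2 and SESN3 in cells with 10% or more (brown) and under 10% (blue) mitochondrial counts within each library, with exact Poisson 95% intervals that cover counting error only. At D3, PIK3R1 has 56.9 CPM in cells under 10% and 39.9 CPM in the others, and the brown points of PIK3R2 lie above the blue ones in each library.

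The FOXO factors themselves were read for context. FOXO3 averaged 44.8 ± 6.62 CPM in afatinib libraries and 46.4 ± 0.985 CPM in untreated ones (SD, n = 3 and n = 2), a log2 fold change of -0.06 ± 0.16 (adjusted p = 0.826). FOXO6 averaged 4.85 ± 0.529 CPM in afatinib libraries and 4.69 ± 1.33 CPM in untreated ones, a log2 fold change of 0.04 ± 0.24 (adjusted p = 0.922). FOXO1 and FOXO4 were not among the genes analysed. Of 25 tested genes of a list of other FOXO targets, 7 rose and 3 fell, and the median log2 fold change was 0.43. Over all genes tested, 13.1% rose and 10.1% fell, and no list was tested as a set. SELENOP, a selenium carrier, had 2.53 ± 0.18 (adjusted p = 0.00117), TNFSF10, the death ligand TRAIL, 2.47 ± 0.26 (adjusted p = 0.00220) and ULK1, a starter of autophagy, 1.33 ± 0.36 (adjusted p = 0.0366). GADD45A, a stress and DNA repair gene, fell with CITED2, by 1.46 ± 0.15 on the log2 scale (adjusted p = 0.00227). The targets called thus included genes of both directions.

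Of 7 other PI3K subunit genes tested, 2 rose and 0 fell, with a median of 0.34. For this list and the next, the shares over all genes were again 13.1% risen and 10.1% fallen. PIK3R3, which encodes the third p85-type subunit (p55-gamma), rose by 0.74 ± 0.14 (adjusted p = 0.0117) and PIK3CA, the catalytic p110-alpha subunit, by 0.63 ± 0.17 (adjusted p = 0.0362). PIK3R1 was thus the p85-type gene that fell. Of 21 AKT and mTOR pathway genes, 5 rose and 3 fell, with a median of 0.28. DEPTOR, an mTOR inhibitor, rose by 1.41 ± 0.20 (adjusted p = 0.00464) and GSK3B, an AKT substrate, by 0.65 ± 0.16 (adjusted p = 0.0230). IRS1, an insulin receptor adaptor that binds p85, fell by 1.36 ± 0.26 (adjusted p = 0.0119) and SGK1, an AKT-related kinase, by 0.90 ± 0.15 (adjusted p = 0.00825), both on the log2 scale.

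Among 7 close relatives of the members, 1 rose and 1 fell, with a median of 0.34. Beside this list and the others of this paragraph stand the shares over all genes, 13.1% risen and 10.1% fallen. SESN2, the other sestrin, rose by 1.61 ± 0.24 (adjusted p = 0.00553), so all 3 sestrins rose, and TSC22D2 fell by 0.52 ± 0.13 on the log2 scale (adjusted p = 0.0267). Since TSC22D3 also responds to glucocorticoids, 9 glucocorticoid targets were read, of which 3 rose and 1 fell, with a median of 0.16. KLF9 rose by 2.20 ± 0.37 (adjusted p = 0.00815), DUSP1 by 1.98 ± 0.33 (adjusted p = 0.00779) and NFKBIA by 0.92 ± 0.28 (adjusted p = 0.0497). FKBP5, another gene of this list, named here after its value was seen, had a log2 fold change of -0.01 ± 0.17 (adjusted p = 0.958). What raised TSC22D3 was not tested. Since SESN1 is also a p53 target, 12 p53 targets were read, of which 4 rose and 3 fell, with a median of 0.32. Beside SESN2, ZMAT3 rose by 0.81 ± 0.21 (adjusted p = 0.0308) and RRM2B by 0.76 ± 0.18 (adjusted p = 0.0246), while TP53I3 fell by 0.78 ± 0.19 on the log2 scale (adjusted p = 0.0252).

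Finally, the genes with the most similar profiles were sought, by Euclidean distance of centred log2(CPM + 1) profiles over the 5 libraries. The search covered 10406 genes averaging 5 CPM or more. The nearest to SESN3 were PROM1 (distance 0.120), VEGFA (0.165) and BOC (0.187), and those to KLHL24 were E2F2 (0.141), IRF2BPL (0.165) and SLC7A5 (0.183). The nearest to CCNG2 were CREBRF (0.0761), CSF1 (0.127) and NBEA (0.141). TSC22D3 had no neighbour as close, its nearest being ELAPOR1 (0.250), TRPV6 (0.256) and CHI3L1 (0.283). SESN1 was nearest to SOS2 (0.0610), PCF11 (0.0659) and FBXW7 (0.126), and PIK3R2 to IARS1 (0.0299), CNTRL (0.0583) and TRAK1 (0.0644). The nearest to CITED2 were PSENEN (0.0633), NIFK (0.0795) and ANXA2 (0.0796), and those to PIK3R1 were PCED1B (0.111), BRD3OS (0.121) and SH3RF1 (0.150). Among the members themselves SESN3 and KLHL24 lay closest (0.332), then SESN1 and PIK3R2 (0.351). With 5 libraries many genes have like profiles, and these distances carry no test.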

How the data were processed

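The 8 members, the gene lists and the tests were chosen with earlier results of these data known. Per the submitters' processing notes and the study's methods, the authors aligned reads with Cell Ranger 6.1.2 to GRCh38, filtered cells on UMI number, mitochondrial outliers and likely doublets, corrected for batch by ComBat-seq and left out lowly expressed genes. The matrix deposited by the authors holds expected counts, that is, batch-adjusted UMI counts per gene and cell, not scaled for depth; all values were whole, so none was rounded. Other deposited columns hold cell names and gene identifiers. The test had been chosen for plain counts.

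Counts were summed per library and tested with edgeR 4.0.16 (TMM factors, filterByExpr, quasi-likelihood F test, Benjamini-Hochberg adjustment over 12145 genes, called at an adjusted p under 0.05), which was first tested on simulated data. The common biological coefficient of variation was 0.171 with 3 residual degrees of freedom, and 0.0557 with 1 in the fit by day. CPM values are TMM-scaled unless stated. Standard errors are the size of the log2 fold change over the root of F. Phases were scored with scanpy 1.11.5 from 43 S and 54 G2M genes; doublets were not called again. Intervals are exact at 95% (binomial for shares, Poisson for counts) and cover counting error only. The upper bound of 0.628% in untreated D0 replicate 1 is an exception, being 3 over its number of cells. Alternatives used DESeq2 1.42.0 and limma 3.58.1, among others. Gene positions are those of GENCODE v44 on GRCh38 and promoters those of RefSeq.

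Named were the 8 members, the FOXO factors, up to 4 called genes per list with the largest log2 fold change in size and a mean of at least 5 CPM, and the 3 nearest profiles per member. Named outside this rule, after their values or positions were seen, were FKBP5, the genes that overlap SESN3 and PIK3R2 (LNCRNA-IUR and ENSG00000268173) and, as cell type markers, EPCAM and COL1A1.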

Additional observations from a re-analysis of the deposited data

How the results depend on the processing

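No member reversed its direction under any of the 17 alternatives to the comparison of afatinib with untreated. TSC22D3 lost no call and SESN3 lost 1 (linear trend), KLHL24 lost 3, PIK3R2 4, CCNG2, CITED2 and PIK3R1 5 each and SESN1 8; the causes were not tested. The main analysis called 2819 genes. Refits, whose calls need not be among those, called 1312 with cells thinned to 5000 UMIs, 1575 in G1 cells, 601 with a linear trend over days and 1378 with detection rates. With 1 library left out the number was from 239 to 6817, with 2 to 6 members risen and 0 to 2 fallen. The lowest of these came from leaving out an untreated library, which leaves 1 untreated sample that is assumed to vary like the others. The highest number of genes called came from leaving out afatinib D9. Members called as fallen numbered 1 in cells under 10% mitochondrial counts (CITED2), 0 in G1 cells, 1 with a linear trend (PIK3R1), which called 1 riser (TSC22D3), and 1 with detection rates (PIK3R1). With no minimum fold, 8 members were called at D3 and 8 at D9 against D0, and between days 1 (D6 against D3), 2 (D9 against D3) and 3 (D9 against D6). How many of all genes were called without that minimum was not taken, so these counts are no finding about the members. Without D3 and D6 together, chosen after seeing the data and read as folds alone, CCNG2 had a log2 fold change of 0.51 and TSC22D3 2.30.

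Shares of cells kept their direction under the alternatives with 1 exception. The share of cells with a PIK3R2 UMI, afatinib minus untreated, was 9.63 percentage points in thinned cells and -0.246 in cells not thinned, where untreated D0 replicate 1 was the deepest library. No paired analysis was possible because the groups share fewer than 2 replicate numbers.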
